A study of Homo sapiens with 2 samples.

Results

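Chains of closely spaced TCF4 antibody peaks in CAL-27 sphere cells are described here. A chain was built by joining autosomal peak summits whenever neighbours lay at most 12.5 kb apart, and a chain entered the set when it held 6 or more summits. The short arm of chromosome 7 and a stretch of the long arm of chromosome 11 were left out. This gave 189 chains with 1564 peaks, which is 5.87% of the 26642 deposited peaks and 6.37% of the 24558 peaks kept for chaining. The chains were chosen by measured peak positions, so the number, spacing and span of the summits describe the rule and are not findings.

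CAL-27 is an established human line that came from a squamous carcinoma of the tongue, and growth as spheres is commonly used to enrich stem-like tumour cells. The series holds 1 sphere library made with the TCF4 antibody and 1 sphere library made with IgG, a control antibody with no chosen target. The IgG library was not analysed here. Each antibody has 1 library, so replicates cannot check any value, and sites of TCF4 cannot be told apart from sites that another antibody would also recover. The name TCF4 is in use both for an E protein, which binds E-box sites, and for TCF7L2, a partner of beta-catenin, and the labels do not say which the antibody recognises.

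Transcription factors often bind at many sites within a short stretch of the genome, and stretches of this kind that act together on a gene are known as clustered enhancers or super-enhancers. In many cell types they lie near genes of cell identity and near genes that respond fast to signals. A distance of 12.5 kb is widely used to stitch such sites together. Stitched peaks also arise where many genes lie close together, each with its own promoter peak, and in repeated DNA near centromeres, where reads are hard to place. No chromatin mark was measured in this series, so the chains are called chains and not enhancers.

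Chains reached into gene starts, and 7 genes of the lists described below had a chain summit within the 100 bases before a RefSeq start. Their 100 bases before the start are shown from 5′ to 3′ on the strand of the gene, in build GRCh38.p14. Capitals mark the searched motifs found in them, on either strand: the CCAAT box (CCAAT), the GC box (GGGCGG) and the AP-1 site (TGANTCA). The genes are the epithelial transcription factor ELF3, the desmosome protein PKP1, the immediate early gene IER2, the Wnt signal transducer DVL2, the ribosomal proteins RPS16 and RPS9, and the synaptic scaffold DLG4.
ELF3, chr1:202010487-202010586, + strand: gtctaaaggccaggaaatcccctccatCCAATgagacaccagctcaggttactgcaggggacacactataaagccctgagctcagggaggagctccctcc
PKP1, chr1:201283406-201283505, + strand: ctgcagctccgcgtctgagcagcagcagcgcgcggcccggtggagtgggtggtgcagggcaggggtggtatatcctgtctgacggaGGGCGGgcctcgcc
IER2, chr19:13150311-13150410, + strand: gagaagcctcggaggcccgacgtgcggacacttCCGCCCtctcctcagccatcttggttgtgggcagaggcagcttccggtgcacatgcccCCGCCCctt
DVL2, chr17:7234518-7234617, - strand: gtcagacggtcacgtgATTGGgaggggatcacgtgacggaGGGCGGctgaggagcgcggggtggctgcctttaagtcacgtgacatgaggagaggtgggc
RPS16, chr19:39435950-39436049, - strand: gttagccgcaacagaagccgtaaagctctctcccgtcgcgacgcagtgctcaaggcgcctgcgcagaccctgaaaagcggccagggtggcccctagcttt
RPS9, chr19:54200758-54200857, + strand: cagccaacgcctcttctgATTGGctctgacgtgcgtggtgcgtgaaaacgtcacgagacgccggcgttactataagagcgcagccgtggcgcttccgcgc
DLG4, chr17:7219837-7219936, - strand: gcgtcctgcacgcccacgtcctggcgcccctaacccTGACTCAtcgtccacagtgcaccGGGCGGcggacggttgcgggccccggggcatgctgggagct

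The summits in these windows lay between 4 and 88 bases before the start. The 88 was at DLG4, and that summit also lay inside the record of ACADVL, a gene of fatty acid oxidation. Another RefSeq start was 14 bp from it, so the peak cannot be given to DLG4 alone. RPS9 had the highest fold enrichment of the 7, at 8.58 on 16 fragments, and RPS16 had the most fragments, 70, at a fold of 8.04. IER2 had a fold of 7.33 on 34 fragments, PKP1 7.03 on 17, DVL2 6.18 on 26, ELF3 6.02 on 37 and DLG4 3.31 on 21. The fold is the authors' ratio of the fragments counted at a summit to those the peak caller expected there, with 1 added to each, and the fragment number was solved from the fold and its p. None of the 7 windows held the E-box forms or the TCF/LEF core forms searched for, which says only that these letters are not there. The forms searched for are those named in the next paragraph. The E-box form CACGTG was not among them, and it stands unmarked in the DVL2 window. The 7 windows can thus not be read as free of E-box sites.

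Across all promoters with a chain summit, the searched E-box and TCF/LEF forms were about as frequent as in promoters with another kept summit. The promoter window ran from 250 bases before to 50 bases after a start, both strands were searched, and overlapping matches of different motifs were each counted. A chain summit lay in 230 windows of 195 genes and another summit in 4720. The E-box form CACCTG occurred in 18.7% of chain windows (Wilson 95% interval 14.2 to 24.2%), 18.6% of windows with another summit and 20.1% of all 20657 windows. CAGCTG occurred in 17.8%, 15.8% and 18.1%, and CATCTG in 6.52%, 7.27% and 12.2%. The TCF/LEF core CTTTGA occurred in 6.09%, 6.55% and 10.9%, and CTTTGT in 8.26%, 7.5% and 13.6%.

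The AP-1 site TGANTCA occurred in 8.26% of chain windows (5.35 to 12.5%), 4.32% of windows with another summit (3.78 to 4.94%) and 6.10% of all windows. In counts this was 19 chain windows, some of them overlapping windows of alternative starts of 1 gene. CCAAT occurred in 39.1%, 42.0% and 34.4%, and the GC box GGGCGG in 85.7%, 81.7% and 56.5%. Median GC content was 66.8% in chain windows, 68% with another summit and 62.3% in all windows. The part of GC content in the motif shares was not tested.

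The chains spanned 6.27 Mb from their first to their last summits. Most were short, with a median of 7 summits over 29.7 kb (quartiles 22.9 and 39.2 kb), a shortest span of 5.44 kb and a longest of 109 kb. There were 72 chains of exactly 6 summits, 39 of 10 or more and 12 of 15 or more, and the largest held 23. The median gap between neighbours was 3919 bp, and the gaps inside chains ended at 12478 bp, against 12503 bp for the smallest gap that broke a chain. Just outside the rule stood 144 chains of 5 summits. Their peaks had a median of 16 fragments and a fold of 5.03, against 16 fragments and a fold of 4.86 in chains of 6.

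Peaks in chains stood on more fragments, over a higher local background, with a slightly lower fold. The median was 21 fragments at the summit (quartiles 14 and 33) in chains against 9 (7 and 14) in the 22994 other kept peaks. The local background, the number of fragments the caller expected there, had a median of 3.09 against 0.898, a ratio of 3.44. The median fold was 4.68 against 5.18, and the median width 211 bp against 173 bp. These values come from the peak list that chose the chains and are given without a test. The processing notes do not say whether the IgG library served the caller as control, so the source of the background is not known.

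**Figure D1:**
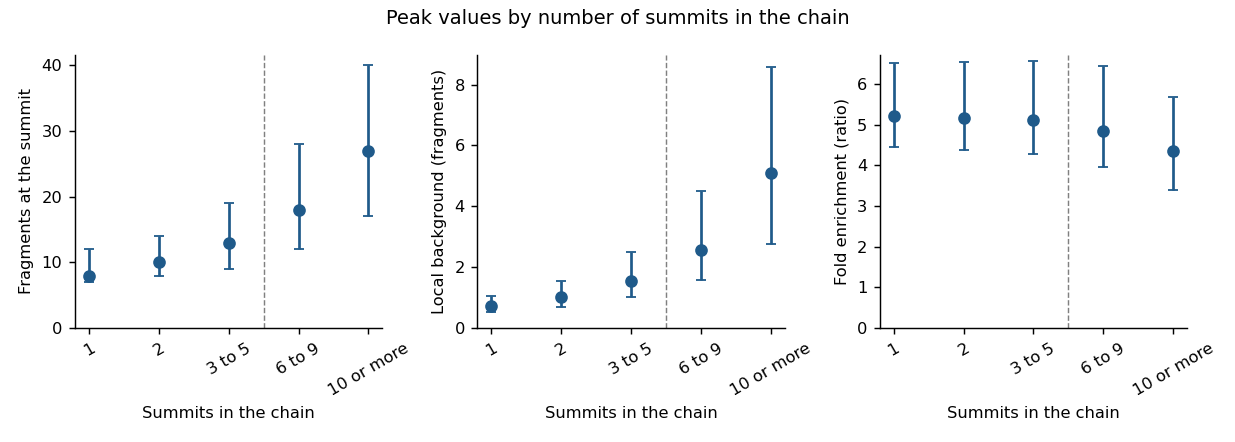
Median fragments at the summit, local background in fragments and fold enrichment (y axes) of kept peaks by the number of summits in their chain (x axes); bars run from the lower to the upper quartile and the dashed line marks the limit of 6 summits. Median fragments go from 8 in lone peaks to 27 in chains of 10 or more, while the median fold goes from 5.21 to 4.34.

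The change with chain size was gradual. Lone peaks had a median of 8 fragments over a background of 0.712, peaks of chains of 3 to 5 summits had 13 over 1.56, and those of chains of 6 to 9 had 18 over 2.56. In chains of 10 or more the median was 27 fragments over 5.11. Chains therefore form the upper part of a range and not a separate class. If the background came from the TCF4 library, the neighbouring peaks that define a chain can themselves add fragments to it. The part this plays was not tested.

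Set beside other peaks of like background, chain peaks had similar fragment numbers. Below a background of 1, the median was 9 fragments in chains and 7 outside them, and at 8 or more it was 45 and 41.5. With a background from 2 to 4 fragments, the median was 18 fragments in 505 chain peaks and 18 in 2562 others. From 4 to 8 it was 27 against 29, with a median fold of 4.16 against 4.64. The lowest fragment number that gave a peak was 5 below a background of 1 and 14 from 4 to 8, in chains and outside them alike. From 1 to 2 it was 7 in chains and 6 outside, and at 8 or more 22 and 23. The lowest −log10 q in the list was 1.30, and such a cutoff sets this floor for a given background, so its likeness is not a finding. By the medians, a higher fragment number in chains goes together with the background the peaks stand on. A background of 8 or more was found for 16.1% of chain peaks and 0.191% of others.

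Gene starts made up a smaller share of chain summits than of other summits. Within 1 kb of a start of a protein-coding gene lay 348 chain summits, 22.3% (20.3 to 24.4%), against 29.4% of all kept summits and 29.8% of those outside chains. RefSeq starts, alternative ones included, were at hand for 79.0% of protein-coding records. At a background of 8 or more the shares were 16.7% and 36.4%, the latter over 44 peaks, and from 2 to 4 they were 27.5% and 35.4%. Counting both ends of a gene record, 472 chain summits (30.2%, 28.0 to 32.5%) lay within 1 kb, against 32.8% of all kept summits.

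Gene finishes showed the opposite order. Within 1 kb of a finish, and not of a start, lay 87 chain summits (5.56%, 4.53 to 6.81%), against 1.62% (1.46 to 1.79%) of summits outside chains. These 87 peaks, in 58 chains, had a median fold of 3.67 and a median background of 6.57, whereas chain peaks at starts had a fold of 5.26 over 3.07. A further 605 chain summits (38.7%) lay deeper inside a protein-coding gene, against 33.8% outside chains. Away from protein-coding genes and other gene ends lay 26.9% of chain summits, against 28.6%.

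Most chains touched a gene end, and the strongest peak of a chain lay at a gene end more often than the 30.2% of all chain summits. Of the 189 chains, 145 (76.7%, 70.2 to 82.2%) had a summit within 1 kb of a protein-coding gene end and 133 had one at a start. A chain of 6 or more summits has many chances to hold 1 at a gene end, and chains of fewer summits were not counted this way. The 76.7% can thus not be read as a preference for gene ends. The peak with the highest fold lay at a gene end in 75 chains (39.7%, 33.0 to 46.8%), and the peak with the most fragments in 74 chains (39.2%). Of the 145 chains with a gene-end summit, 51.7% (43.7 to 59.7%) had their highest fold there. These chains were picked for having such a summit, so this share cannot be set against the 30.2%. The highest peak had a median of 1.87 times the chain's median fragments, with a range from 1.04 to 9.42. In 94 chains at least 1 peak rested on 10 fragments or fewer, and 54 chains held at least 6 peaks with a −log10 q of 5 or more. When only such peaks were chained, 40 chains of 6 or more summits were found.

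Chains differed in the genes they crossed. A protein-coding gene record overlapped the span of 167 chains: 64 chains overlapped 1 record, 64 overlapped 2 to 3, and 39 overlapped 4 or more. In the last group 54.6% of summits lay at a gene end, against 17.3% in chains over 1 gene. The median fragments at the summit were alike, at 22 and 21, and so was the median background, at 3.35 and 3.32. Chains of many promoters and chains spread over 1 gene were thus both present, with peaks of like height.

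**Figure D2:**
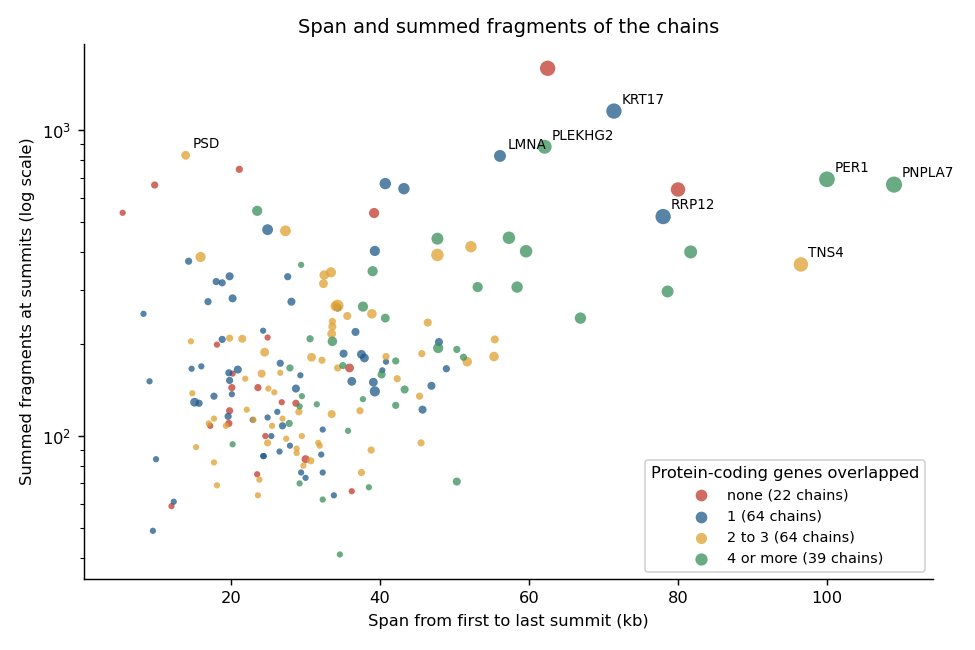
Span from the first to the last summit in kb (x axis) and summed fragments at all summits on a log scale (y axis) of the 189 chains; colour gives the number of protein-coding genes overlapped and point size the number of summits. The sums run from 41 to 1594, and the highest point is a chain on chromosome 4 that overlaps no protein-coding gene.

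Among chains over a gene, the one at KRT17 had the highest fragment sum. KRT17 encodes a keratin that basal and wounded squamous epithelium makes, and the record lies on chromosome 17 from 41619442 to 41624575. The chain ran from 41617277 to 41688696, 71.4 kb with 21 summits, and summed to 1155 fragments. Summits in the first 9 kb had 59 to 131 fragments, those between had as few as 11, and the last one, at an end of the translation initiation gene EIF1, had 81 at a fold of 9.10. The highest, at 131 fragments, lay within 1 kb of an end of KRT17 at a fold of 4.90. The median background was 12.3, against 1.22 for peaks outside chains on the chromosome. Keratin genes and their pseudogenes are close in sequence, so reads may be shared among them and the values at KRT17 itself are uncertain.

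LMNA, which encodes the nuclear lamina proteins lamin A and C, carried a chain of 14 summits over 56.1 kb on chromosome 1, from 156090954 to 156147059. Of its summits 11 lay inside the gene, and the sum was 824 fragments. The most fragments, 111 at a fold of 3.73, stood 1454 bp past the LMNA record, and the highest fold, 11.1 on 81 fragments, stood inside the gene. An internal start of LMNA at 156106716 had a summit 181 bases before it, with 60 fragments at a fold of 6.81.

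The chain at NFKB2 and PSD was short and deep. NFKB2 encodes an NF-kB subunit and PSD an exchange factor for ARF GTPases. The 9 summits on chromosome 10, from 102394360 to 102408271, had 97, 71, 100, 166, 85, 98, 55, 57 and 99 fragments in their order along 13.9 kb. Each was above the upper quartile of 33 for chain peaks. Their median background of 26.5 fragments was 32.1 times that of other peaks on chromosome 10, the highest such ratio of the 189 chains. Their folds went from 2.04 to 6.86, with the 6.86 at an end of NFKB2, and their median of 3.56 was below the lower quartile of 3.74 for chain peaks.

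RRP12, a ribosome biogenesis gene, held the most chain summits inside 1 gene, 15 of the 21 in its chain on chromosome 10 from 97335003 to 97413046. Fragments at the summits went from 12 to 43 over 78.0 kb. The highest fold, 11.8 on 36 fragments, lay at the first summit, within 1 kb of an end of FRAT2, a Wnt regulator outside the span. Inside the gene the folds were between 2.74 and 4.23, except for 9.41 at the last summit there. After LMNA in this order came ZDHHC11B, with 10 summits inside the gene on chromosome 5. Its peaks were weak, with a median of 13 fragments, and it has a close copy, so reads may be split between the copies.

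**Figure D3:**
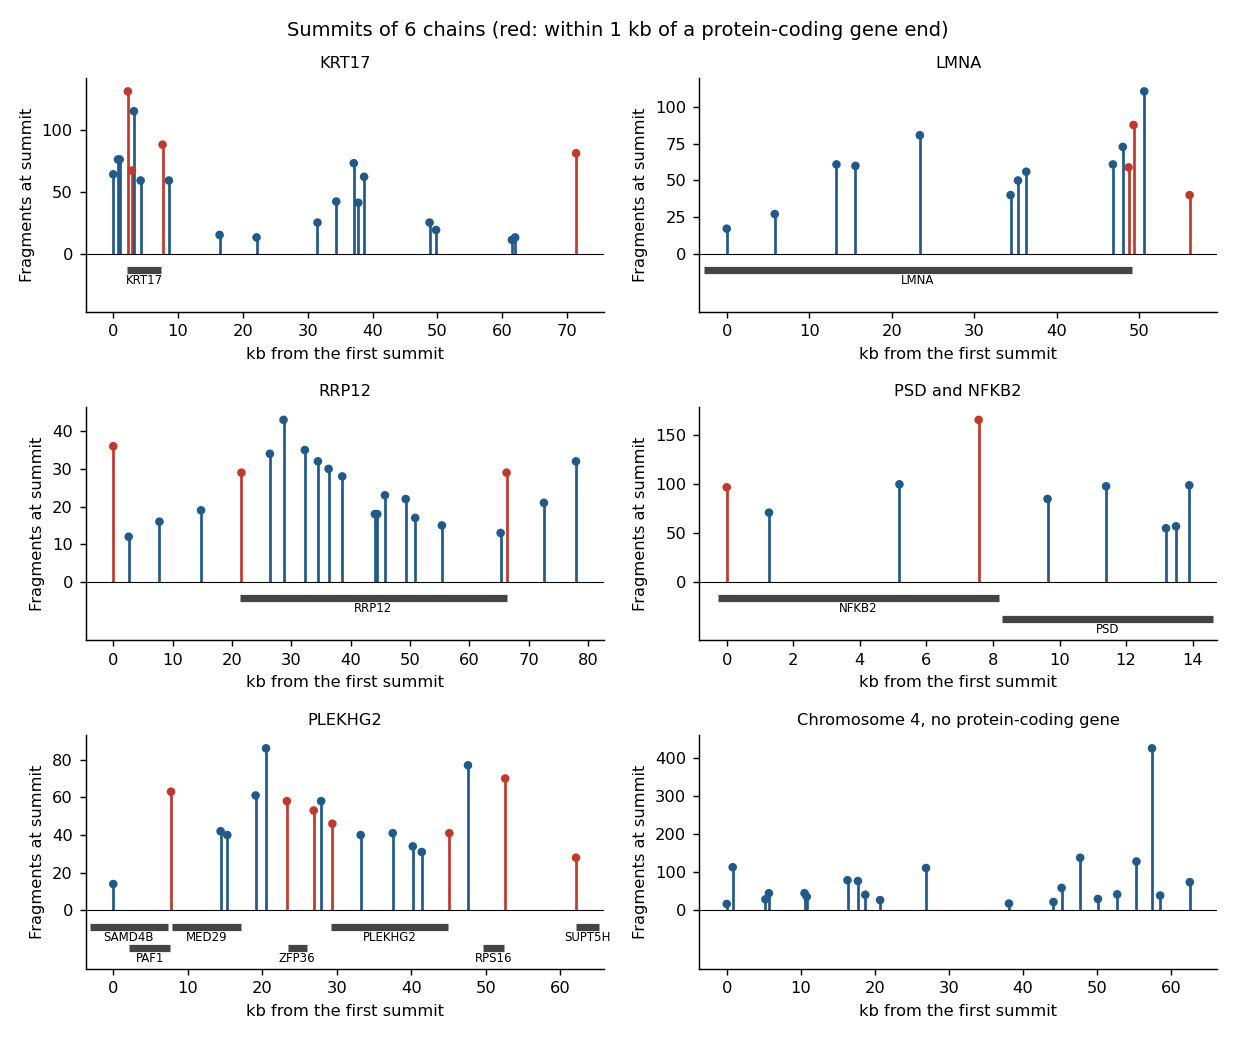
Fragments at each summit (y axis) against distance from the first summit in kb (x axis) for 6 chains, with protein-coding gene records as bars below and summits within 1 kb of a protein-coding gene end in red. KRT17, LMNA and RRP12 show summits spread along 1 gene or beyond it, PLEKHG2 shows summits over 7 genes, and the chromosome 4 chain has 1 summit of 424 fragments among lower ones.

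The chain with most summits lay on chromosome 9 from 137411799 to 137520976. It had 23 summits over 109 kb and overlapped PNPLA7, EXD3, NSMF, NOXA1 and ENTPD8, with 10 of them in or beside PNPLA7, a lysophospholipase gene. Its highest peak had 85 fragments. The next, with 22 summits on chromosome 17 from 8110413 to 8210375, overlapped 7 genes, among them the circadian repressor PER1 with 6 summits, VAMP2 and the HES family gene HES7. On chromosome 19, 18 summits overlapped 7 genes including PLEKHG2, MED29, PAF1 and ZFP36, summing to 883 fragments over a median background of 12.9. The peak between the starts of MED29 and PAF1, 166 and 106 bases before them, had the highest fold there and 63 fragments.

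TNS4, a focal adhesion protein of epithelial cells, lay in a chain of 19 summits over 96.5 kb of chromosome 17 that reached to CCR7, a chemokine receptor. These peaks were low, with 8 to 36 fragments and a median background of 2.72. The highest fold, 12.7 on the 36 fragments, lay outside both gene records. Of its 19 summits 1 lay at a gene end, within 1 kb of TNS4. A chain on chromosome 16 with 16 summits over 81.7 kb had the reverse make-up. It overlapped 10 genes, among them BICDL2, HCFC1R1, KREMEN2, CLDN9 and PKMYT1, and 13 of its summits lay at gene ends. Another chain held 15 summits over 59.6 kb of chromosome 1, at THBS3, MUC1, TRIM46, MTX1 and KRTCAP2. MUC1 is an epithelial mucin, and the peaks 149 and 687 bp from its start had 36 fragments at a fold of 4.05 and 65 at 7.27.

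The densest chains over genes were at EEF1A1, EFNA1 and SEPTIN9. EEF1A1, a translation elongation factor, had 6 summits in 8.24 kb of chromosome 6, with 26, 54, 27, 36, 27 and 81 fragments. The last, 178 bases before the start, had a fold of 11.5, and the others had at most 6.44. EEF1A1 has many processed copies in the genome, so its read counts are uncertain. The ephrin gene EFNA1 shared 11 summits in 15.9 kb with SLC50A1 and DPM3, each between 19 and 56 fragments and none over a fold of 4.99. SEPTIN9, a cytoskeletal GTPase, had 6 summits in 9.05 kb, with at most 41 fragments.

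Other genes stood out by the number of chain summits in or within 1 kb of them, and they are named here after their values were seen. In all, 62 genes (0.332% of 18671) had 6 or more. Overlapping records share summits in this count. PCDHA1 to PCDHA7 each held the same 6, none over 8 fragments, and LOC124904106 lies inside KDM6B. The histone demethylase KDM6B had 10, and the phospholipid-binding ANXA1 and C1QTNF3 had 9 each. ITGB4, the laminin chain LAMA5, the circadian repressor PER2, the GTPase regulator RALGDS and BAIAP2 had 8 each. The urokinase gene PLAU had 6, in a chain of 13 summits over 43.2 kb that summed to 644 fragments. CCNL1, a cyclin of RNA processing, had 7 in a chain of 13 summits that summed to 669. The chain at ANXA1 held 12 summits in 24.9 kb, 7 of them inside the gene, with at most 69 fragments and a median background 11.3 times that of other peaks on chromosome 9.

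Of 22 chains that overlapped no protein-coding gene, several had the highest folds of the set. All 6 chains with a fold over 20 were among them, while the highest fold in a chain over a gene was 17.8. The median fold of their 177 peaks was 6.04 and the median −log10 q 10.4, against 4.57 and 5.87 in the chains over genes. On chromosome 4, a chain of 21 summits from 49092019 to 49154503 had folds up to 31.6 on 424 fragments, and lay 29.9 kb from CWH43. On chromosome 1, 7 summits from 125174064 to 125183804 reached 30.1 on 337 fragments, and 19 summits from 143184720 to 143264678 reached 29.8. These stretches may lie near centromeres, where repeats are common, but their distance to a centromere was not measured. Repeat content and read placement were not examined, as no genome sequence was used here.

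The gene-free chains were not all alike. A distance of over 100 kb to the nearest protein-coding gene was found for 10 of them, with 86 peaks and a median highest fold of 17.6. The other 12 lay nearer and had a median highest fold of 10.2, against 8.30 for chains over genes. Among these, chosen after their values were seen, 7 summits lay 9.85 kb from IL1A, an epidermal cytokine gene, with a highest fold of 9.65. Another 7 lay 11.2 kb from KRT78, a keratin gene, with a highest fold of 6.46, and 6 lay 22.8 kb from the nucleotide receptor gene P2RY2, with 9.07. Among the 10 remote chains, 6 summits on chromosome 17 from 26835986 to 26856192 reached a fold of 22.5, with a median background of 1.24. They lay 438 kb from a protein-coding gene. Another remote chain, on chromosome 10 from 41875445 to 41914635, lay 660 kb from such a gene. It held 11 summits with none at a gene end and reached 20.6. Repeats at these chains were not examined either. The densest chain of all, 3.05 kb from a protein-coding gene, had 6 summits in 5.44 kb near the low end of chromosome 18, with up to 167 fragments.

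Chromosomes 17 and 19 held the largest shares. Of 1624 kept peaks on chromosome 17, 277 were in chains (17.1%, 15.3 to 19.0%), and of 1639 on chromosome 19, 274 were (16.7%, 15 to 18.6%). They held 30 and 34 of the 189 chains, that is 15.9% and 18.0%, with 6.26% and 7.77% of protein-coding records. Chromosome 1 followed with 24 chains and 8.37% of its peaks. Chromosome 13 had none among 496 kept peaks (upper bound 0.769%), and chromosome 15 had 1 chain of 7. The median background of peaks outside chains was 1.22 on chromosome 17 and 1.51 on chromosome 19, the latter the highest of the autosomes, against 0.648 on chromosome 13. The part of gene density, copy number and local depth in these shares was not tested. Chains also lay near each other, with 11 neighbouring pairs at most 50 kb apart.

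**Figure D4:**
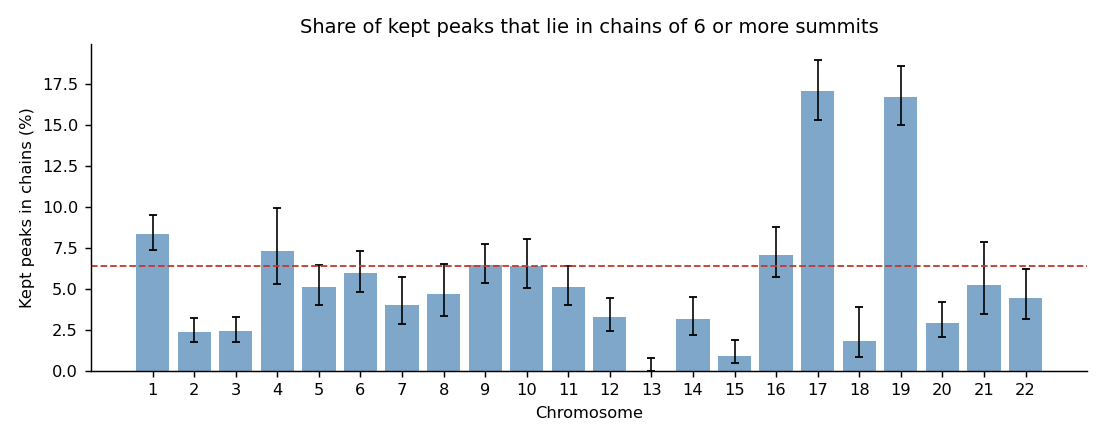
Percentage of kept peaks in chains of 6 or more summits (y axis) on each autosome (x axis), with Wilson 95% intervals; the dashed line is the share over all kept peaks, 6.37%. Chromosomes 17 and 19 stand at 17.1% and 16.7%, and chromosome 13 has no chain.

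Protein-coding genes in chains were compared with 15 gene lists. Of 18671 eligible genes, 419 (2.24%) overlapped a chain. Of the 10382 with any kept summit inside or within 1 kb, 3.97% did. Short genes in gene-dense stretches can share 1 chain, so genes of a list are not independent of each other, and the counts are given with no test.

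The list of AP-1 and immediate early genes, which are induced very fast by signals, had 6 of 21 in a chain (28.6%, lower bound 13.8%). They were FOS and FOSB, both subunits of AP-1, the phosphatase DUSP1, the mRNA decay factor ZFP36, and IER2 and IER3. The highest fold in or within 1 kb of the gene was 2.58 at ZFP36, 3.36 at FOSB, 4.18 at DUSP1 and 4.27 at IER3. It was 4.98 at FOS and 7.33 at IER2, against a median of 4.68 for all chain peaks. At FOS, on chromosome 14, the 7 summits had 33, 25, 39, 62, 52, 24 and 40 fragments within 16.9 kb. The most fragments, 62 at a fold of 4.98, lay within 1 kb of a gene end. The highest fold there, 11.9 on 40 fragments, lay 11844 bp from the gene. At DUSP1, on chromosome 5, the 8 summits had 17, 37, 54, 51, 50, 42, 19 and 12 fragments within 20.2 kb, with most fragments in and beside the gene. Those of 37 to 54 fragments had folds of 3.41 to 4.55 over backgrounds of 10.1 to 11.6. Farther out, the summits of 17 and 19 fragments had folds of 7.68 and 7.05 over 1.34 and 1.84. ATF3 and BTG2 overlapped none, with 3 and 1 kept summits of their own.

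Basal squamous adhesion and keratin genes overlapped a chain in 5 of 24 cases (20.8%, 9.24 to 40.5%). Besides KRT17 these were the desmosome plakophilins PKP1 and PKP3, the laminin chain LAMB3 and the integrin ITGB4, which join basal cells to the basement membrane. At ITGB4, on chromosome 17, 7 summits within 18.8 kb had 38, 34, 18, 69, 13, 17 and 18 fragments, and the peak of 69 reached a fold of 9.56. LAMB3 shared a chain of 9 summits within 32.4 kb with the gene CAMK1G, with 23 to 49 fragments over a median background of 12.7. Of these summits 5 lay in or within 1 kb of LAMB3, with low folds of 2.18 to 3.44. The others lay inside CAMK1G, among them the highest fold of the chain, on 23 fragments. PKP1 held 7 of the 9 summits of its chain, with 17 fragments at the start shown above and 28 at the most inside the gene. CD44 and CDH1 overlapped none, although CDH1 had 5 kept summits.

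Of squamous transcription factors, 3 of 23 overlapped a chain (13%, 4.54 to 32.1%). Among these, ELF3 lay in a chain of 7 summits, with the fold of 6.02 at its start given above. ZNF750 lay in a chain of 6, with at most 22 fragments in or beside the gene. BHLHE40 and BNC1 overlapped none.

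Actin cytoskeleton and focal adhesion genes overlapped a chain in 3 of 28 cases (10.7%, 3.71 to 27.2%): TNS4, the cytoplasmic actin ACTG1 in a chain of 15 summits, and the tropomyosin TPM4. ACTN4 overlapped none despite 8 kept summits, and ACTN1 had 5. EGFR ligands and MAPK feedback genes had 3 of 23 (13%): IER3, the ephrin receptor EPHA2 with 7 summits in or beside it, and ERBB2, which has 1 chain summit of 8 fragments. AREG and BTC overlapped none. In the Notch pathway 2 of 19 did (10.5%, 2.94 to 31.4%). The receptor NOTCH1 had 40 fragments at its start and 11 to 31 at the other summits of its chain of 8, and the feedback inhibitor NRARP had 34 in a chain of 10. ADAM10 and ADAM17 overlapped none.

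Genes named for either reading of TCF4 were in chains about as often as all genes, as far as lists of this size can show. Of 36 Wnt/beta-catenin pathway genes, DVL2 alone overlapped a chain (2.78%, 0.492 to 14.2%), close to the 2.24% of all genes, while 25 of the 36 had a kept summit. APC and AXIN1 had 1 kept summit each. None of the 7 E and ID proteins overlapped a chain (upper bound 35.4%), and 4 had a kept summit. Among YAP/TEAD and TGF-beta genes, TEAD3 was 1 of 25 (4%), and AJUBA and AMOTL2 overlapped none.

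Cytoplasmic ribosomal proteins, a list of housekeeping genes, overlapped a chain in 6 of 33 cases (18.2%, 8.61 to 34.4%), a share that also lies above the 2.24% of all genes. Among them were RPS16, RPL13A, RPS9, RPL10A and RPL35, each with 1 chain summit in or beside the gene, in chains that reach over neighbouring genes. RPL11 and RPL12 overlapped none.

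Markers of other cell types overlapped chains in numbers near the 2.24% of all genes. None of 20 hepatocyte, 20 lymphocyte and 15 endothelial markers did, with upper bounds of 16.1%, 16.1% and 20.4%. Few of these genes had any kept summit, 3 of the hepatocyte, 3 of the lymphocyte and 4 of the endothelial markers. ALB, CD2, CDH5 and CLDN5 had no kept summit, and AHSG had 1. Among neuron markers DLG4 was 1 of 19 (5.26%, 0.935 to 24.6%), in a chain of 13 summits that also holds ACADVL, a gene of fatty acid oxidation, and DVL2. Of these 13 summits 6 lay in or within 1 kb of DLG4, and the strongest of them had a fold of 6.93 on 34 fragments inside the gene. CAMK2A and ELAVL3 overlapped none. Among fibroblast markers S100A4 was 1 of 18 (5.56%, 0.988 to 25.8%), in a chain of 13 summits over the S100 genes S100A2 to S100A6, and ACTA2 and COL1A1 overlapped none.

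**Figure D5:**
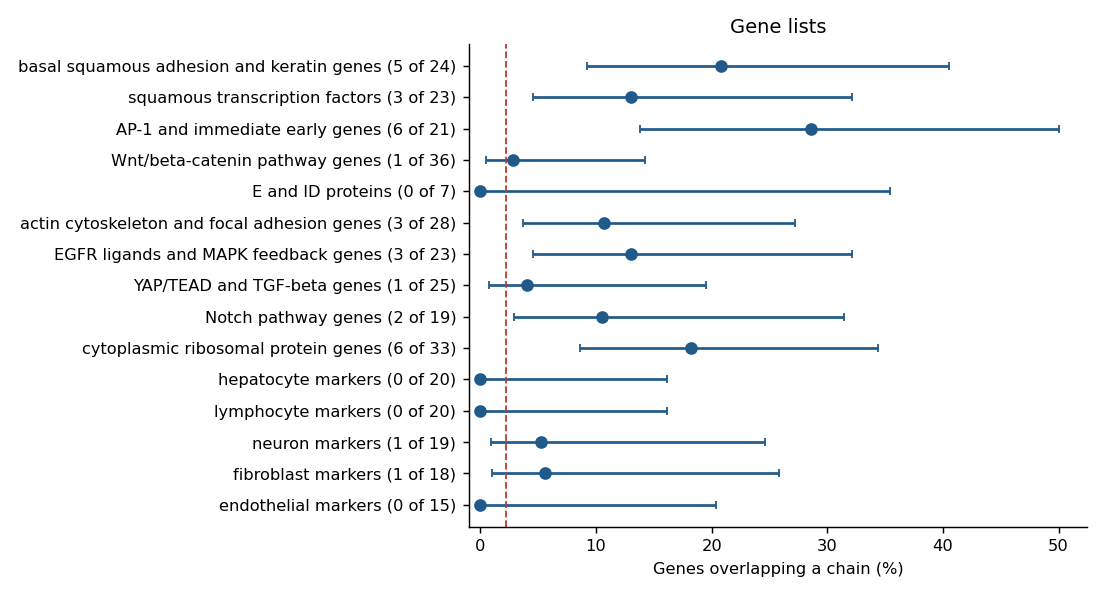
Percentage of genes overlapping a chain (x axis) for the 15 gene lists (y axis), with Wilson 95% intervals and counts in the labels; the dashed line marks the 2.24% of all eligible protein-coding genes. AP-1 and immediate early genes stand at 28.6%, basal squamous genes at 20.8% and ribosomal protein genes at 18.2%.

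Non-coding genes were present in chains as well. Of 17383 lncRNA records 121 (0.696%) overlapped a chain, and of 1751 miRNA records 39 did (2.23%, 1.63 to 3.03%). For tRNA genes it was 16 of 438 (3.65%, 2.26 to 5.85%) and for snoRNA genes 33 of 1121 (2.94%). For pseudogenes it was 33 of 13999 (0.236%), for snRNA genes 2 of 151 (1.32%) and for rRNA genes 0 of 49. The share of protein-coding genes was 2.24%, so the miRNA share was close to it. The RefSeq table gave 35 miRNA hairpins inside chain spans, of 1461 on autosomes. The mature miRNAs shown, chosen after their chains were seen, come from the chain over VMP1, the chain over NANOS3 and ZSWIM4, and the chain over BCL6B. Capitals mark the seed, bases 2 to 8, and miR-195-5p and miR-497-5p share theirs.
hsa-miR-21-5p, chr17:59841273-59841294, + strand: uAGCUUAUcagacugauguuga
hsa-miR-23a-3p, chr19:13836595-13836615, - strand: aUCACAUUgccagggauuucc
hsa-miR-27a-3p, chr19:13836447-13836467, - strand: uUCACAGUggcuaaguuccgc
hsa-miR-24-3p, chr19:13836289-13836310, - strand: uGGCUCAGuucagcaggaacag
hsa-miR-195-5p, chr17:7017667-7017687, - strand: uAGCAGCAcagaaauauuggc
hsa-miR-497-5p, chr17:7017979-7017999, - strand: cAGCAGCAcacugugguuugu

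The hairpin of MIR21, a miRNA abundant in many carcinomas, lay 1950 bp from the nearest of 6 summits, which had 23 fragments at a fold of 5.33. This chain stood on a low background, with a median of 1.25 fragments, 1.02 times that of other peaks on chromosome 17. The hairpins MIR27A, MIR23A and MIR24-2 lay 26, 119 and 181 bp from 1 summit with 19 fragments at a fold of 2.85, in a chain of 10 summits. MIR195 and MIR497 lay 2857 and 3165 bp from a summit with 32 fragments at a fold of 8.37. These distances run from the middle of the hairpin, and the starts of the primary transcripts were not used here.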

How the data were processed

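Peaks of 1 TCF4 antibody library from CAL-27 sphere cells were used. The submitters' processing notes name Bowtie2 2.3.5.1, SAMtools, MACS2 2.2.7.1 and, as build, hg38, with no settings. The deposited list holds the authors' fold enrichment (a ratio at the summit), their −log10 p and −log10 q, and a score of 10 times the −log10 q with decimals dropped. Fragments at a summit and the local background were solved from fold and p, taking fold as (fragments + 1) / (background + 1) and p as the upper tail of a Poisson law. Over the 26642 peaks the largest misfit in −log10 p was 0.000048. In a check on simulated data, 500 of 500 peaks and 40 of 40 planted chains were recovered.

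Summits on autosomes were chained when neighbours lay at most 12.5 kb apart, and chains of at least 6 were kept. Chromosome 7 below 59430175 and chromosome 11 from 63990000 to 67640000 were left out. Gene records, promoters and miRNAs came from RefSeq tables for GRCh38.p14, the assembly hg38 names. The chains and the gene lists were chosen with earlier results of these data known. Genes and chains were named by rank (most summits, span, density, fold, fragments) and by membership of the lists, with up to 6 list genes in a chain and 2 outside. Exceptions are marked. Some genes of the lists are counted but not reported by name here. Intervals for shares are Wilson 95% intervals and those for medians are binomial 95% intervals. Both cover counting error, and peaks of a chain share a locus, so they are too narrow for the region. No test was run, because 1 library has a file and positions in it chose the members. Other distances, thresholds and gene rules were tried. Scripts ran in Python 3.11.15 with SciPy 1.17.1, NumPy 2.4.6, Matplotlib 3.10.9 and pandas 2.3.3.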

Additional observations from a re-analysis of the deposited data

How the results depend on the processing

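No paired analysis was possible because each antibody has 1 library and only the peak list of the TCF4 library was used. The main values were 189 chains, 1564 peaks, 419 genes and 31 genes of the lists. Chains, peaks, protein-coding genes and list genes came to 37, 267, 36 and 6 with a distance of 5 kb, and to 382, 3494, 1180 and 57 with 20 kb. With a −log10 q of at least 5 they came to 40, 337, 80 and 9, and with at least 10 summits to 39, 540, 128 and 13. Asking for 3 chain summits per gene left 195 genes and 17 list genes. The gene-end share of summits (30.2%) was 22.5% with 5 kb, 33.2% with 20 kb, 22.1% with a window of 500 bp, 40.3% with 2 kb and 34.0% without gene-free chains, an alternative chosen after seeing the data. The share of chains with a gene end (76.7%) was 83.2% with 20 kb, 70% with the stricter q, 89.7% with at least 10 summits, 84.7% with ends of all gene records and 86.2% without gene-free chains.

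The median fold (4.68) was 3.73 with 5 kb, 4.90 with 20 kb, 5.36 with the stricter q, 4.56 with at least 10 fragments, 4.34 with at least 10 summits, 4.57 with both left-out stretches included and 4.57 without gene-free chains. Median fragments (21) were 35, 17, 35, 24 and 27 under the first 5 of these. The median background (3.09) was 8.77, 2.34, 5.39, 4.14 and 5.11, and 3.52 with both stretches included. In all, 31 of these comparisons stayed within 1.5 times or within the interval of the main value and 46 did not. The cause was not tested. Among the lists, AP-1 and immediate early genes went from 6 to 2 with 5 kb and to 3 with the stricter q, basal squamous genes from 5 to 1 under each, and ribosomal proteins from 6 to 1 under each.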
